A study of Homo sapiens with 8 samples.

Results

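The genes described here are the 8 human genes for ligands of the receptor NKG2D: MICA, MICB, ULBP1, ULBP2, ULBP3, RAET1E, RAET1G and RAET1L. They were taken by name from an RNA-seq table of 30755 gene symbols, and all 8 were found in it. The family was chosen by the fall of MICB when HNF4A was lowered, so every value of its members in that contrast is a description and carries no test. The samples were ESO26 cells, an established line grown from an adenocarcinoma of the oesophagus. RNA was sequenced from 2 libraries of cells with an siRNA against HNF4A, an endodermal transcription factor, and from 2 libraries of control cells. The series' design text speaks of triplicates, whereas 2 libraries of each group are labelled and tabulated here. The titles of the knockdown libraries carry a letter B before the replicate number, and its meaning is not explained. The labels do not say what the control cells received, which siRNA sequence was used, how long the knockdown lasted, or whether the 2 libraries of a group came from separate cultures. If they did not, the spread between them is technical. Both groups carried the same cell line label and were described with the same growth medium.

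NKG2D, encoded by KLRK1, is an activating receptor of natural killer (NK) cells and of some T cells. Its ligands are distant relatives of MHC class I molecules that do not present peptides to T cells. They appear on the surface of stressed, infected or transformed cells, and a cell that displays them can be recognised and killed. MICA and MICB are transmembrane proteins encoded in the MHC. The ULBP and RAET1 genes form a second cluster on the same chromosome, and their products are held in the membrane by a lipid (GPI) anchor in some members and by a transmembrane segment in others. Proteases can cut ligands from the surface, and stress and DNA damage signalling raise the expression of several of them.

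HNF4A was at 4129 and 3937 normalized counts in the control libraries and at 1140 and 932 in the knockdown libraries, so the groups did not overlap and matched their labels. The log2 fold change was -1.97 ± 0.095 (standard error), with adjusted p = 1.59e-05 in limma and a range from 1.53e-09 to 0.0919 over the alternatives that kept all libraries. Normalized counts summed to between 17912507 and 18613685 per library. Between 4260 and 5640 genes were listed at 0 in a library, fewer in both knockdown libraries than in both control libraries. The epithelial character of the cells was clear from its markers: all 9 of 9 epithelial genes examined (EPCAM, CDH1, KRT8, KRT18, KRT19, KRT20, VIL1, CDH17 and MUC13) were above 0 in every library, and they summed to between 105185 and 110557 normalized counts. Of these 9, KRT19, CDH17 and MUC13 were called higher and EPCAM, KRT8 and KRT18 lower, where 6.02% of all tested genes were called higher and 8.11% lower. The markers of NK and T cells, which carry the receptor, summed to 48.3 and 42.0 in the controls and to 47.1 and 76.7 after knockdown. Of 17 such symbols 12 were in the table, 6 were above 0 in all 4 libraries and NKG7 was at 0 in all. Only KLRK1, the gene of the receptor itself, was tested. Its mean was 18.4 normalized counts in the controls and 31.9 after knockdown. The groups of KLRK1 did not overlap, but it was not called (log2 fold change 0.76 ± 0.38, standard error). Fibroblast and endothelial markers, 7 of 10 in the table, summed to 235 and 147 in the controls and to 303 and 282 after knockdown. Most of each sum was COL1A1, with 179 and 108 in the controls and 202 and 212 after knockdown, which was not called. VWF, 1 of the 5 tested, was called higher (8.55 and 6.68 in the controls, 47.5 and 36.4 after knockdown). Myeloid and B cell markers, 6 of 8 in the table, summed to 157 and 139 in the controls and to 98.6 and 146 after knockdown. The part of such cells in the results was not tested.

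MICB had 211 and 201 normalized counts in the control libraries and 63.7 and 62.5 in the knockdown libraries. Both knockdown values lay far below both control values, and the libraries within each group were close to each other. The group means were 206 ± 6.96 and 63.1 ± 0.831 (SD, n = 2), so that 30.7% of the control level was left, a 3.26-fold difference. On the log2(normalized count + 1) scale the fold change was -1.69 ± 0.18 (standard error), the 33rd lowest of 15577 genes tested. These are the values for which the family was chosen. In bulk RNA, fewer cells with the transcript and less of it in each cell cannot be told apart.

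MICA, the closest relative of MICB, had 190 and 228 normalized counts in the controls and 159 and 149 after knockdown. Its groups did not overlap either, but the higher control library was 1.20 times the lower one, and the knockdown mean was 73.7% of the control mean. The means were 209 ± 26.9 and 154 ± 6.81 (SD, n = 2). The log2 fold change was -0.43 ± 0.16 (standard error), and it lay between -0.56 and -0.30 when any 1 library was left out. MICA ranked 1291 from the lowest fold change among the 15577 genes.

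**Figure D1:**
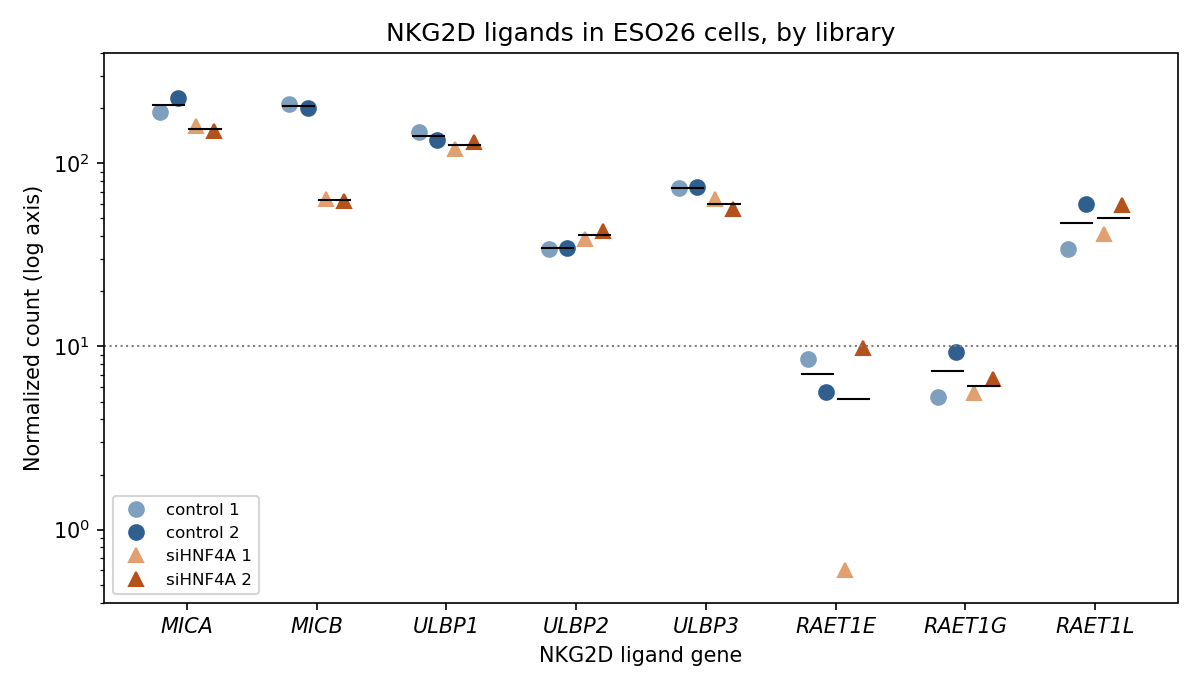
Normalized counts (log axis) of the 8 NKG2D ligand genes in each of the 4 RNA-seq libraries of ESO26 cells. Points are single libraries (circles control, triangles siHNF4A), black bars are group means and the dotted line marks the mean of 10 below which genes were not tested. MICB stands at 211 and 201 in the controls and at 63.7 and 62.5 after knockdown, while RAET1E and RAET1G lie below 10 in every library.

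Because reads from such close relatives can be assigned to either gene, MICA and MICB were also added together. The sum was 401 and 429 normalized counts in the controls and 222 and 212 after knockdown, again with no overlap. The means were 415 ± 20.0 and 217 ± 7.64 (SD, n = 2), so that 52.3% of the control sum was left, which is -0.93 on the log2 scale. Both genes were lower, so the fall of MICB was not matched by a gain of MICA. MICB made up 72.2% of the difference in the sum. The share of MICB in the sum was 52.6% and 46.9% in the controls and 28.6% and 29.5% after knockdown. This share is of normalized counts and not per transcript length, so it compares libraries and not the abundance of the 2 genes. Whether the counting separated the 2 genes is not stated.

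**Figure D2:**
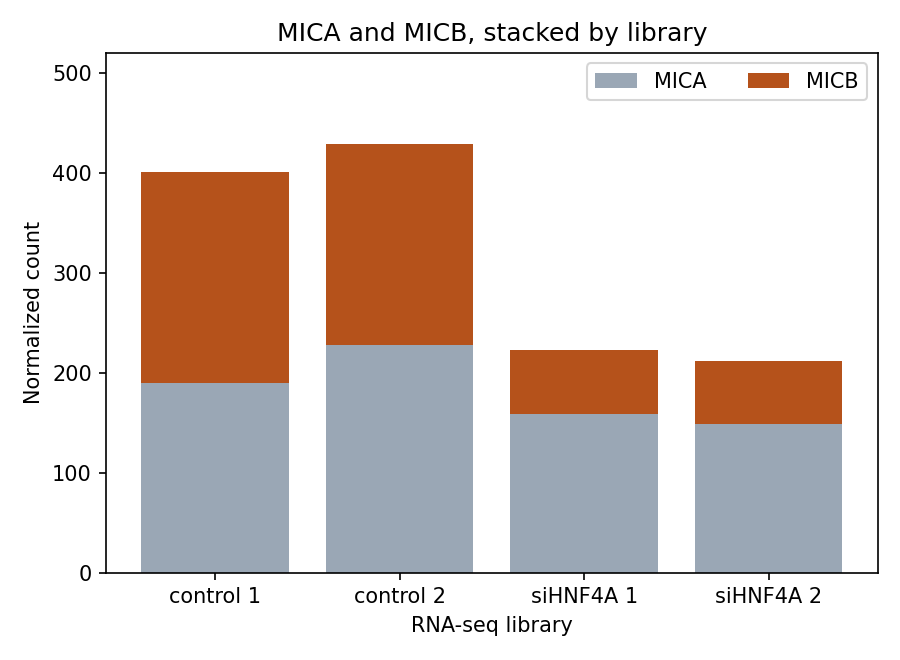
Normalized counts of MICA (lower part) and MICB (upper part) stacked for each of the 4 libraries. The stacks reach 401 and 429 in the control libraries and 222 and 212 in the knockdown libraries, and both parts are lower in the knockdown.

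The promoters of both MIC genes are shown because the genes are close copies with unequal fold changes. Sequences are from RefSeq (GRCh38.p14), where all 8 ligand genes matched by symbol. Each runs from 250 bases before to 50 bases after a transcription start, 5′ to 3′ on the plus strand, at chr6:31403345-31403644 for MICA and chr6:31497895-31498194 for MICB. Capitals mark a CCAAT box (CCAAT, or ATTGG on the other strand) and a GC box (GGGCGG, or CCGCCC on the other strand).
MICA: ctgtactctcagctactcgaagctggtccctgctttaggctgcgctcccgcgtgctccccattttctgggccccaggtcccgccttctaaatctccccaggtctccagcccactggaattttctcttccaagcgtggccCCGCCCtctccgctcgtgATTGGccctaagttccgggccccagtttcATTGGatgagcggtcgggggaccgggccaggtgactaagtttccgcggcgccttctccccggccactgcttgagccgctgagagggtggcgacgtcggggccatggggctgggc
MICB: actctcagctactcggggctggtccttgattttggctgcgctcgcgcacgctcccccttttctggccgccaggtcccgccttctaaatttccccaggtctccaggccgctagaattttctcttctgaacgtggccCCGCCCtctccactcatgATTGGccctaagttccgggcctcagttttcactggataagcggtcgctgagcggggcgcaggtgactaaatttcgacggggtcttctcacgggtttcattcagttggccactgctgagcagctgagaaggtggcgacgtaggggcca
Aligned with free ends, 246 of the 301 columns from the first to the last aligned pair were identical (81.7%), with 38 mismatches and 17 gap columns. Unpaired bases at the ends are not counted. Both promoters hold 1 GC box, and the MICA promoter holds 2 CCAAT boxes where the MICB promoter holds 1. Over all 35116 promoters in the table, 45.0% hold such a GC box and 34.6% such a CCAAT box, so neither is rare. Of 2 exact forms of an HNF4 site that were searched on both strands, CAAAGTCCA is in 0.384% and CAAAGTTCA in 0.296% of all promoters, and neither is in a promoter window of the 8 ligand genes. A GATA motif (AGATAA), which 10.3% of all promoters hold, is in none of these windows either. The letters TATAAA, in 11.5% of all promoters, are in that of ULBP1 only, on both strands and downstream of the annotated start rather than upstream of it, where a TATA box lies. Of the other forms searched on both strands, a short heat shock element (TTCNNGAA, in 7.74% of all promoters) is in 1 window of RAET1E and the E2F form TTTCCCGC (1.63%) in that of ULBP2, while the E2F form TTTGGCGC (0.652%) is in none. A CRE (TGACGTCA, 1.85%), a nuclear receptor direct repeat, a full heat shock element and an NF-kB site are in none. These windows are short, and the ChIP-seq peak lists of the series were not placed on genes here.

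ULBP1, ULBP2, ULBP3 and RAET1L were measured above the minimum mean of 10 normalized counts, and with all 4 libraries their log2 fold changes were closer to 0 than that of MICA. ULBP1 had 148 and 135 normalized counts in the controls and 120 and 131 after knockdown. The knockdown libraries were the lower ones, by little: the log2 fold change was -0.17 ± 0.18 (standard error), and it was -0.10 without control replicate 1 and -0.11 without siHNF4A replicate 1. ULBP3 had 73.0 and 74.4 in the controls and 63.8 and 56.3 after knockdown. Its groups also did not overlap, with a log2 fold change of -0.29 and a standard error of 0.23. ULBP2 went the other way, with 34.2 and 34.4 in the controls and 38.8 and 42.6 after knockdown. Its log2 fold change of 0.24 was smaller than its standard error of 0.29. RAET1L, which encodes the ligand also called ULBP6, had 34.1 and 59.9 in the controls and 41.3 and 58.9 after knockdown. Both knockdown values lay between the control values, and the log2 fold change of 0.12 turned negative when control replicate 1 (-0.27) or siHNF4A replicate 2 (-0.13) was left out. It was 0.52 without control replicate 2, where that of MICA was -0.30, and 0.38 without siHNF4A replicate 1.

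RAET1E and RAET1G, which encode ligands with a transmembrane segment, were barely detected. RAET1E had 8.57 and 5.65 normalized counts in the controls and 0.600 and 9.77 after knockdown, so the highest and the lowest value were both in the knockdown. RAET1G had 5.33 and 9.37 in the controls and 5.60 and 6.61 after knockdown. Neither passed the filter on low values, and no fold change is given for them. Both overlap the antisense gene RAET1E-AS1 in the RefSeq annotation, and RAET1E also overlaps RAET1E-LRP11. The other 6 ligand genes overlap no RefSeq gene.

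Seen as a family, 4 of the 6 tested ligands had both knockdown libraries below both controls, ULBP2 had both above, and RAET1L overlapped. Of all tested genes 30.1% were separated downward and 26.9% upward. In the limma fit across all 15577 genes, MICB was 1 of 6 tested members called at an adjusted p under 0.05, where 14.1% of all genes were called (6.02% higher and 8.11% lower), and nothing is read from this count because the family was chosen for it. Of all called genes 42.6% were higher with the values as deposited, and 53.0% after the libraries were rescaled to equal sums. The median log2 fold change of the 6 was -0.23, against -0.0073 over all tested genes. The 6 ULBP and RAET1 genes together summed to 303 and 318 normalized counts in the controls and to 270.4 and 305 after knockdown, ranges that overlap. All 8 genes summed to 704 and 747 in the controls and to 493 and 516 after knockdown. MICA and MICB made up 56.9% and 57.4% of that total in the controls and 45.1% and 41.0% after knockdown.

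The chromosomal neighbours showed whether genes around each cluster moved as well. Around and between MICA and MICB, 22 neighbours were in the table and 11 were tested. Only CCHCR1, a centrosomal protein gene, was called, and it was higher: 685 and 707 normalized counts in the controls and 822 and 944 after knockdown (adjusted p = 0.0485 in limma). That is 1 of 11, where 14.1% of all tested genes were called and 6.02% were called higher. The call was lost when any 1 library was left out. With all libraries kept, it was also lost without the filter on low means (adjusted p = 0.151 in limma). The median log2 fold change of the 11 was 0.098 and the lowest was -0.11, for the RNA helicase gene DDX39B. The HLA-B gene, next to MICA in the table's gene order, had 6754 and 7238 in the controls and 7461 and 6983 after knockdown. The noncoding gene HCP5, which lies between MICA and MICB, had 186 and 159 in the controls and 180 and 188 after knockdown. None of the tested neighbours had a fold change as low as that of MICA or MICB.

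Around the ULBP and RAET1 cluster 21 neighbours were in the table and 14 were tested. Of these, 5 were called lower and none higher, where 8.11% of all tested genes were called lower. A negative fold change was seen in 12 of the 14, against 51.0% of all tested genes, and the median was -0.21. The 14 include RAET1K, a pseudogene of the ligand family, which had the lowest value (-1.23). MTHFD1L, a mitochondrial enzyme of folate metabolism, fell from 1698 and 1767 normalized counts to 1288 and 1250 (adjusted p = 0.0044 in limma). LRP11 fell from 2528 and 2456 to 1949 and 1966 (adjusted p = 0.0083 in limma). IYD, an iodotyrosine deiodinase gene, fell from 272 and 367 to 115 and 213 (adjusted p = 0.0313 in limma). The nuclear pore gene NUP43 and the zinc finger gene ZBTB2 fell by 0.28 and 0.32 on the log2 scale. LRP11 and IYD were no longer called without siHNF4A replicate 1 (adjusted p = 0.0509 and 0.139 in limma), where the log2 fold change of IYD went from -1.01 to -0.57. With all 4 libraries IYD was also not called with a robust variance prior (adjusted p = 0.0678 in limma) or without the filter on low means (0.179). The calls were also lost for NUP43 and ZBTB2 without any 1 of the 4 libraries (adjusted p from 0.0527 to 0.246 in limma). NUP43 and ZBTB2 were also not called with equal library sums (adjusted p = 0.0607 and 0.0700 in limma) or after quantile normalization (0.0673 and 0.0792). Without the filter on low means they were not called either (adjusted p = 0.103 and 0.139 in limma). RAET1K, a transcribed pseudogene between ULBP1 and RAET1L, had 25.2 and 24.0 normalized counts in the controls and 13.9 and 7.02 after knockdown. It was separated but not called (adjusted p = 0.110 in limma), and its log2 fold change was -1.23 ± 0.46 (standard error). Without siHNF4A replicate 2 that value was -0.78 and without siHNF4A replicate 1 it was -1.68. Of the 5 pseudogenes and noncoding genes of the family that were in the table, out of 11 listed, 2 were tested (RAET1K and HCP5). In limma 0 of these passed the threshold, with an unadjusted p under 0.05 for 1 of them. For comparison, 14.1% of the 15577 genes in the fit passed it, and 4504 were under 0.05 before adjustment.

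**Figure D3:**
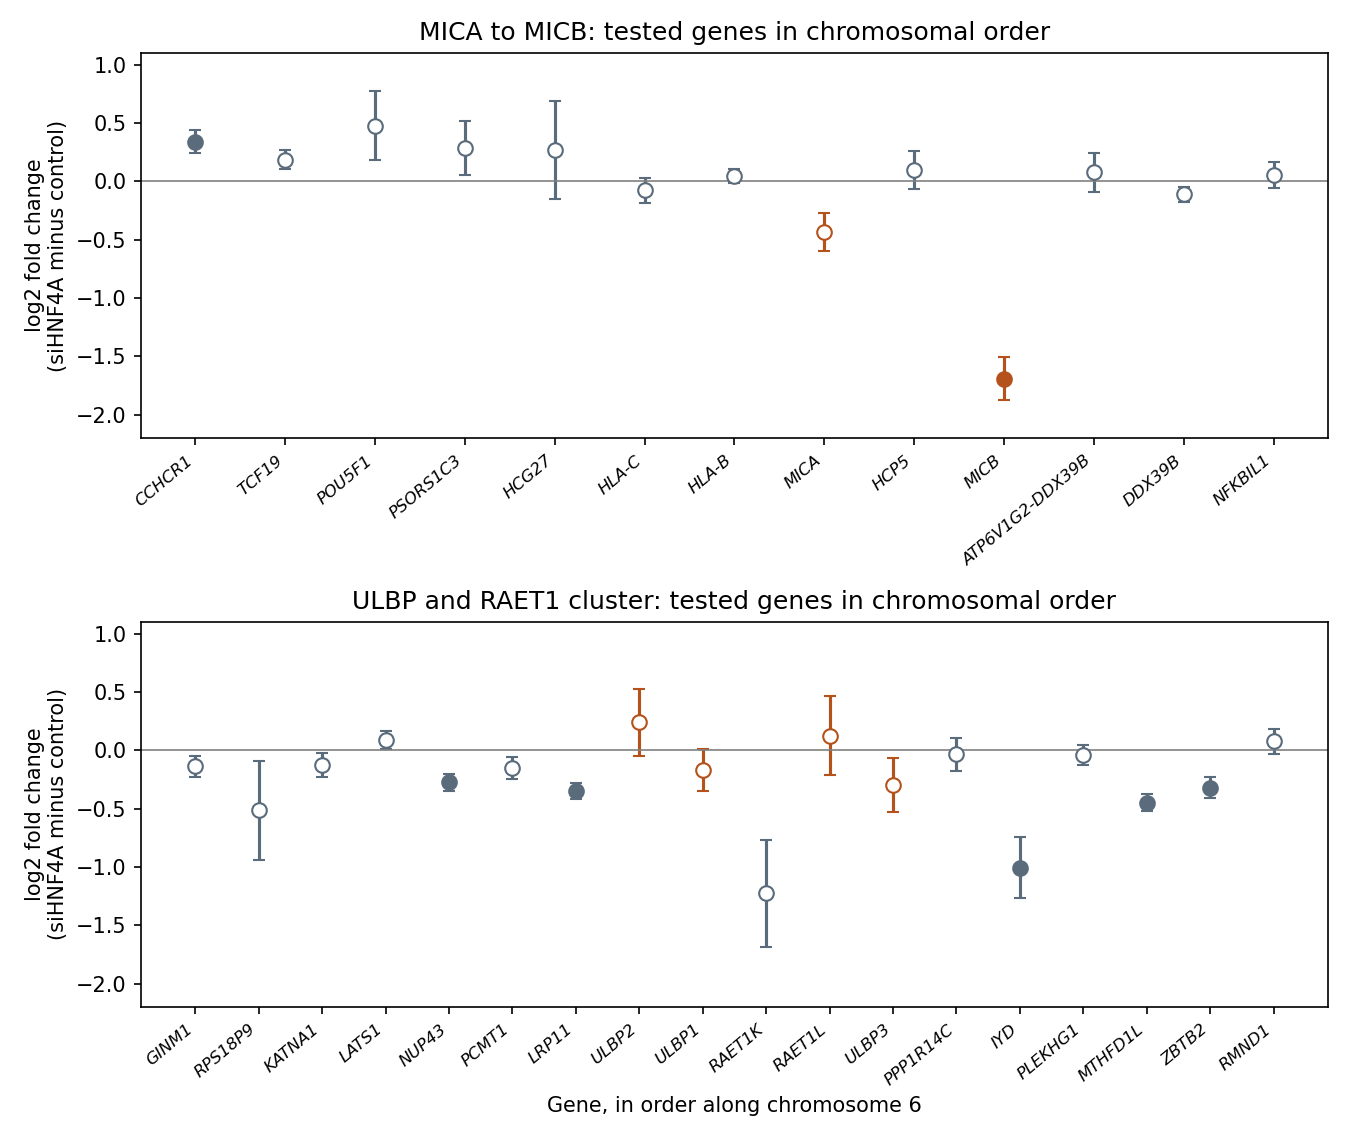
Log2 fold changes (siHNF4A minus control) of the tested genes around MICA and MICB (top) and around the ULBP and RAET1 genes (bottom), in their order along chromosome 6. Orange marks the ligands, bars are standard errors from limma and filled points had an adjusted p under 0.05. MICB at -1.69 stands below neighbours that lie between -0.11 and 0.48.

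Among other surface and ligand genes through which NK cells recognise or kill a target, 4 fell. The list held ligands of other NK receptors together with the death receptor genes FAS, TNFRSF10A and TNFRSF10B and with LLGL1, a cell polarity gene, and none of these 4 was called. Of 21 genes listed 19 were in the table and 16 were tested. Of the 16, 4 were called lower and none higher, where 8.11% of all tested genes were called lower. Another 10 had a negative fold change and did not pass the test, and 51.0% of all tested genes had a negative fold change. The median log2 fold change was -0.31, against -0.0073 over all tested genes. With equal library sums 12 of the 16 had a negative fold change. The genes called were NCR3LG1 (ligand B7-H6 of the receptor NKp30), PVR and PVRL2 (nectin family ligands of DNAM-1, PVRL2 being the older name of NECTIN2) and the adhesion gene ICAM1. NCR3LG1 fell from 310 and 303 normalized counts to 177 and 202, a log2 fold change of -0.69 ± 0.14 (standard error; adjusted p = 0.0115 in limma). ICAM1 fell from 271 and 223 to 149 and 151 (log2 fold change -0.71, adjusted p = 0.0169 in limma). PVR fell from 1168 and 1331 to 874 and 919 (log2 fold change -0.48, adjusted p = 0.0087 in limma). PVRL2 fell from 1265 and 1400 to 1107 and 998 (log2 fold change -0.34, adjusted p = 0.0353 in limma).

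Some of these calls were lost when 1 library was left out. Without siHNF4A replicate 1 none of the 4 was called in limma, with adjusted p = 0.0705 for NCR3LG1, 0.0705 for ICAM1, 0.0527 for PVR and 0.0531 for PVRL2. Without siHNF4A replicate 2 the adjusted p in limma was 0.0686 for ICAM1 and 0.197 for PVRL2. ICAM1 was also not called without control replicate 1 (adjusted p = 0.0635 in limma), nor PVRL2 without control replicate 2 (adjusted p = 0.128 in limma) or after quantile normalization (adjusted p = 0.0525 in limma). Their direction stayed down in each of these fits.

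Among genes that release or anchor the ligands, calls went in both directions. Of 16 genes listed 15 were in the table and 12 were tested, with 1 called higher and 3 called lower, where 6.02% and 8.11% of all tested genes were. A negative fold change was seen in 6 of the 12, against 51.0% of all tested genes, and the median log2 fold change was -0.016, which turned to 0.023 with equal library sums and to 0.029 after quantile normalization. The largest change was in ANXA2, a membrane-binding annexin that is itself neither a sheddase nor an anchoring enzyme, which fell from 9741 and 10929 normalized counts to 4366 and 4498 (log2 fold change -1.22, adjusted p = 1.98e-05 in limma). PDIA6, a disulfide isomerase that assists MICA shedding, fell from 10612 and 10990 to 8884 and 8807 (adjusted p = 0.0061 in limma). ADAM17, a sheddase of MICA and MICB, fell from 1956 and 2057 to 1633 and 1706 (adjusted p = 0.0383 in limma), while ADAM10 had 3591 and 3716 in the controls and 4091 and 4224 after knockdown and was not called. GPAA1, a subunit of the enzyme that attaches GPI anchors, rose from 1157 and 1185 to 1533 and 1461 (adjusted p = 0.0151 in limma). Without siHNF4A replicate 1 the calls of GPAA1 and ADAM17 were lost (adjusted p = 0.0997 and 0.186 in limma). Without siHNF4A replicate 2 those of PDIA6, GPAA1 and ADAM17 were lost (adjusted p = 0.0539, 0.0532 and 0.100 in limma). ADAM17 was also not called without control replicate 2 (adjusted p = 0.130 in limma), with equal library sums (0.0587) or after quantile normalization (0.0674). Under the same rescalings ADAM10 was called higher (adjusted p = 0.0282 and 0.0238 in limma), so that 2 genes of the list were then called higher and 2 lower.

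Genes known to raise or limit ligand expression were split too. All 33 listed were in the table and 32 were tested, with 3 called higher, 6 called lower and a median log2 fold change of -0.040. Over all tested genes 6.02% were called higher and 8.11% lower. The split was 4 higher and 4 lower with equal library sums or quantile normalization, and 3 higher and 1 lower without the filter. ATR, a DNA damage kinase upstream of NKG2D ligands, fell from 1995 and 2368 normalized counts to 1526 and 1321 (log2 fold change -0.61, adjusted p = 0.0041 in limma). Its call was lost without the filter (adjusted p = 0.0547 in limma). The transcription factor MYC fell from 1960 and 2164 to 1290 and 1477 (log2 fold change -0.58, adjusted p = 0.0031 in limma). STAT3, a transcription factor activated by cytokines, rose from 4750 and 5041 to 6198 and 6150 (log2 fold change 0.34, adjusted p = 0.0054 in limma). The histone deacetylase gene HDAC1 rose from 4189 and 4117 to 5624 and 5163 (log2 fold change 0.38, adjusted p = 0.0046 in limma). The heat shock gene HSPA1A rose from 1351 and 1409 to 1918 and 1869 (adjusted p = 0.0037 in limma). This value is uncertain because HSPA1B is a near-identical copy. HSPA1B had 3810 and 4359 in the controls and 4492 and 4663 after knockdown and was not called.

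MHC class I heavy chains and their relatives, which share the fold of the MIC proteins, gave 0 calls among 10 tested genes in limma, with a median log2 fold change of -0.090 and a negative fold change in 6 of them. Over all tested genes 14.1% were called and 51.0% had a negative fold change. HLA-F and MR1, 2 of the 10, had an unadjusted p under 0.05 in limma, as did 4504 of all 15577 tested genes. The median turned to 0.043 without control replicate 2, and 2 genes were called without control replicate 1.

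**Figure D4:**
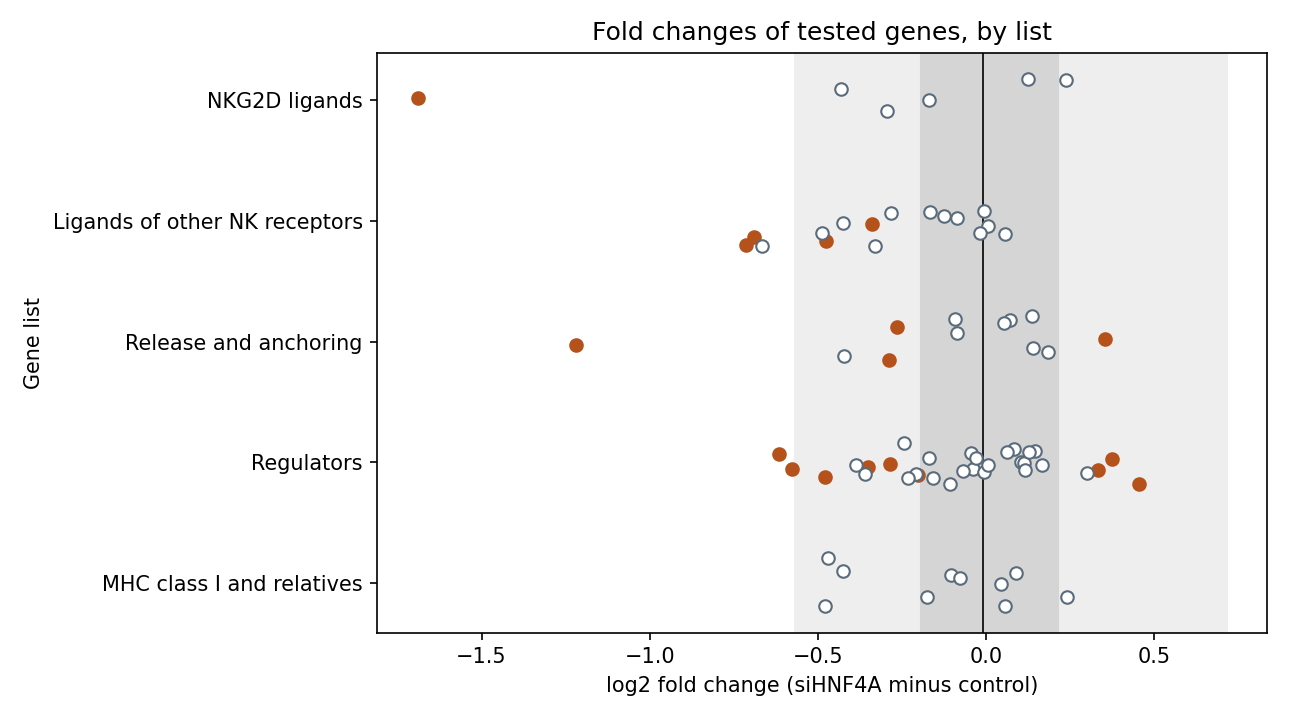
Log2 fold changes (siHNF4A minus control) of the tested genes of 5 lists, without the list of pseudogenes and noncoding genes that holds RAET1K, 1 point per gene, filled where the adjusted p in limma was under 0.05. The black line is the median of all 15577 tested genes, the dark band runs from their 25th to their 75th percentile and the light band from the 5th to the 95th. Among the 5 lists drawn, MICB at -1.69 is the lowest point, followed by ANXA2 at -1.22.

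The genes whose pattern over the 4 libraries was most like that of MICB were sought among 12110 others with a mean of at least 50. Likeness was the Euclidean distance between log2(normalized count + 1) profiles, each centred on its own mean. The nearest was SLC7A9, an amino acid transporter subunit, at a distance of 0.14, with 185 and 192 normalized counts in the controls and 56.1 and 61.2 after knockdown. EMC7 (0.19), STRADB (0.22) and SH3GL1 (0.27) were also among the 5 nearest, and their log2 fold changes lay between -1.62 and -1.47. For MICA the nearest were MESDC1 (distance 0.026), TNFRSF19 (0.037), PHLDA3 (0.039), EVA1A (0.040) and RPL36 (0.041). Their log2 fold changes lay between -0.47 and -0.40. With 4 libraries in 2 groups, such a distance mostly reflects the size of the fold change and the spread of the libraries, and it is given as a description.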

How the data were processed

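RNA-seq of 4 ESO26 libraries was analysed. The authors deposited normalized counts, a signal value per gene symbol. Per the submitters' processing notes, Bowtie, Bowtie2, Trim Galore, Picard, MACS2 and hg19 were used, with no role given. The counting program, annotation, strand setting and normalization are not given in the sources used here. Only 22.4% to 48.8% of low values lay within 2% of a step of whole multiples of the most frequent low value. In siHNF4A replicate 2 that value was 2.02, although values near 1.01 occur there as well. Its 22.4% may therefore rest on too large a step. Whole reads were not recovered by this check, depth was not derived and no count model was fitted. The ChIP-seq peak lists and the 4C libraries were not used, since no hg19 annotation was at hand, and protein sequences were not used.

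limma 3.58.1 in R 4.3.3 (lmFit, eBayes with trend, no block) was fitted on log2(normalized count + 1) to 15577 genes whose mean reached 10. Calls were made at a Benjamini-Hochberg adjusted p under 0.05. With 2 libraries a group, calls rest on variances shared across genes. On simulated data with 200 of 15577 genes changed by 1 on the log2 scale, 69% were called and 9.80% of calls were false. The simulated noise was normal, and the spread of each gene was set to a smoothed trend over the mean. In the data 14.1% of tested genes were called, so these shares are not error rates of the calls reported here. Motif searches and alignments used Biopython 1.88. RefSeq gene order (GRCh38.p14) gave the 10 nearest genes on each side.

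The members and gene lists were chosen with earlier results of these data known. Genes named are HNF4A, the 8 members, up to 5 called genes of each list or neighbour set with the smallest p, and the 5 genes most like MICB and MICA. One gene that this rule names is not reported here. ADAM10, HLA-B, HCP5, DDX39B, RAET1K, KLRK1, HLA-F, MR1, VWF, FAS, TNFRSF10A, TNFRSF10B and LLGL1 were chosen outside this rule, after their values were seen. Alternatives were other pseudocounts, filters, rescalings and variance models, a replicate block and leaving out each library.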

Additional observations from a re-analysis of the deposited data

How the results depend on the processing

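The log2 fold change of HNF4A lay between -2.11 and -1.82 without any 1 library; without the variance trend it was -1.97 and no longer past the threshold (adjusted p = 0.0919 in limma). MICB stayed between -1.75 and -1.63 and MICA between -0.56 and -0.30 under the alternatives run. The sum of MICA and MICB stayed between -0.98 and -0.88 under the 6 alternatives run for it, which were rescalings and leaving out 1 library. RAET1L changed sign with 1 library left out, between -0.27 and 0.52.

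Genes called numbered 2202 (938 higher, 1264 lower). Testing all genes above 0 gave 726 (306 and 420), with 30247 genes tested. Without the trend limma called 0, with 3524 genes at an unadjusted p under 0.05; the cause was not tested. Leaving out 1 library gave 1013 to 2449 calls (419 to 1091 higher, 594 to 1358 lower), the lowest without siHNF4A replicate 2.

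Among the lists, calls went to 0 without the trend for release and shedding (4 as reported), regulators (9) and other genes of NK recognition and killing (4), and to 2, 4 and 0 without the filter. With 1 library left out they were 1 to 4, 5 to 11 and 0 to 4, and 0 to 2 for the MHC class I relatives (0 as reported), which had 1 call with the replicate block. Of 406 values of 29 other named genes, 326 kept their side of the threshold, 78 were weaker, 2 stronger and 0 reversed.

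The replicate block gave 2428 calls. Deviations of same-numbered libraries from their group means had a Pearson correlation of -0.019 across 15577 genes, so the numbers were not read as pairs. Genes with a mean under 10, RAET1E and RAET1G among them, were left out by the chosen filter and were tested only in the fit without it.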
